A study of Homo sapiens with 4 samples.

Results

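The heat shock chaperones of the cytosol, nucleus and mitochondria, with the J proteins that serve them and their main regulators, were followed in BEAS-2B, an established line of human bronchial epithelial cells. They were chosen by gene symbol: the HSPA, HSPB, HSP90A, DNAJA, DNAJB and DNAJC families, HSPD1, HSPE1, HSPH1, TRAP1, HSF1, HSF2 and BAG3, without pseudogenes and without 6 chaperones of the endoplasmic reticulum lumen (HSPA5, HSPA13, DNAJB9, DNAJB11, DNAJC3 and DNAJC10). Of 39634 table rows with values, 81 met this rule: 69 protein-coding genes, and 12 antisense, divergent or read-through rows that carry a chaperone's name. The low-count filter left 60 of the 81, which were tested among 15336 genes. The other 21 had too few reads, and 8 of these were at 0 in every library. None of the 60 passed the filter through 1 group only.

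All cells were grown in N2B27 medium, and both groups carried a short hairpin RNA (shRNA). The 2 control libraries came from cells with a control shRNA (genotype CTL), and the 2 compared with them from cells with an shRNA against Fer (genotype Fer knockdown), a cytoplasmic tyrosine kinase. Replicates carry numbers in the labels, which neither tie them to separate cultures nor give the hairpin's sequence, so the p-values reflect the spread among these 4 libraries alone, and that spread may be technical. FER itself had 334 and 459 counts in control and 404 and 535 in the knockdown-labelled libraries. Its log2 fold change was 0.02 ± 0.17 (SE; adjusted p = 0.976 in edgeR's quasi-likelihood test), so the targeted mRNA was not lower, and the libraries labelled Fer knockdown are called knockdown-labelled throughout.

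Chaperones bind unfolded or partly folded proteins and keep them from aggregating. HSP70 works in cycles of ATP binding and hydrolysis, in which J proteins deliver the substrate and start hydrolysis, nucleotide exchange factors of the HSP110 and BAG families release it, and HSP90 takes over late folding steps of kinases and receptors. Under heat or proteotoxic stress the transcription factor HSF1 forms trimers, binds heat shock elements in DNA and raises transcription of many of these genes.

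Library totals ran from 21422976 to 25169713 counts. Levels are in CPM, counts relative to a library's total after scaling with TMM factors, log2 fold changes compare the knockdown-labelled libraries with control, and the threshold is an adjusted p of 0.05 over all tested genes. Mitochondrial transcripts took 16.9% and 19.4% of the counts in control and 9.62% and 9.37% in the knockdown-labelled libraries. With mitochondrial genes left out, the median log2 fold change of the chaperone genes was -0.04, beside -0.03 with them. Any other part of this shift in the results below was not tested. The replicates lay further apart in control (median absolute log2 difference over tested genes 0.264) than in the knockdown-labelled libraries (0.119). The epithelial keratins KRT8 and KRT18 were high in every library (745 CPM or more). Of the other epithelial markers listed, KRT7 was at 211 to 309 CPM, TJP1 at 56.6 to 97.1 CPM and KRT17 at 22.0 to 43.7 CPM. KRT19, CDH1 and EPCAM were lower, from 2.74 CPM (EPCAM) to 10.5 CPM (CDH1), and KRT5 and TP63 had too few reads to test. The mesenchymal markers VIM (896 to 1455 CPM) and FN1 (1901 to 2936 CPM) were also high, while COL3A1 was at most 1.14 CPM and COL1A2 had too few reads to test. The blood and endothelial markers CD3E and HBB were at 0 throughout, although CD14, a marker of monocytes that epithelial cells can also express, had 15.8 to 24.7 CPM.

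No chaperone gene passed the threshold. In bulk RNA such as this, fewer cells with a transcript and less of it per cell cannot be told apart. In edgeR's quasi-likelihood test 0 of 60 members had an adjusted p under 0.05, against 0.646% of all tested genes (0.28% higher and 0.365% lower). At an unadjusted p under 0.05 there were 12 of 60 (20%, background 17.7%). Of these, 3 were higher in the knockdown-labelled libraries (5%, background 8.95%) and 9 were lower (15%, background 8.77%). Both knockdown-labelled libraries lay above both controls for 9 members (15%, background 25.8%) and below both for 17 (28.3%, background 23.4%), and the 2 groups overlapped for the other 34. The other tools called more: DESeq2 called 5 members (background 3.78%) and limma-voom 3 (background 1.16%).

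The median log2 fold change of the members was -0.03, beside 0.01 over all tested genes. Members differed from control by more than 0.5 in 10 of 60 cases (16.7%, against 16.2% of all tested genes). By more than 1 there was 1 member, HSPE1 (1.67%, against 3.33%). Summed over all members, the scaled level was 7053 and 7016 CPM in control and 6326 and 6219 CPM in the knockdown-labelled libraries. As a share of unscaled counts, the protein-coding members took 0.662% and 0.665% in control and 0.671% and 0.656% in the knockdown-labelled libraries, so the lower sum is seen on the TMM scale and not in the unscaled share.

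**Figure D1:**
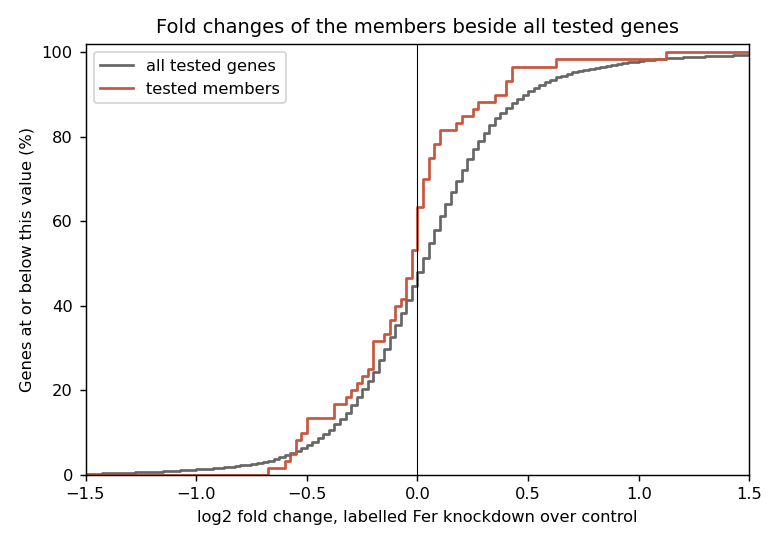
Cumulative percent of genes (vertical axis) at or below each log2 fold change, knockdown-labelled libraries over control (horizontal axis), for the 60 tested members and all 15336 tested genes. The medians are -0.03 and 0.01, and the curve of the members reaches its top at HSPE1 (1.11).

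The levels spanned from HSP90AB1, HSPB1 and HSPA8 at the top to genes with no reads. Per kilobase of the gene length that the table gives, averaged over the 4 libraries, HSP90AB1 was at 364 CPM, HSPB1 at 270 CPM, HSPA8 at 241 CPM and HSP90AA1 at 137 CPM. DNAJA1 followed at 94.8 CPM per kilobase, BAG3 at 78.5 CPM and DNAJC8 at 50.6 CPM. DNAJB1 and HSPD1 were next at 44.2 and 43.9 CPM per kilobase, and their ranges over the libraries overlapped. HSPA8, HSP90AA1 and HSP90AB1 together took 43.3% to 45.4% of all member counts in each library, so these 3 genes make up a large part of any sum.

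**Figure D2:**
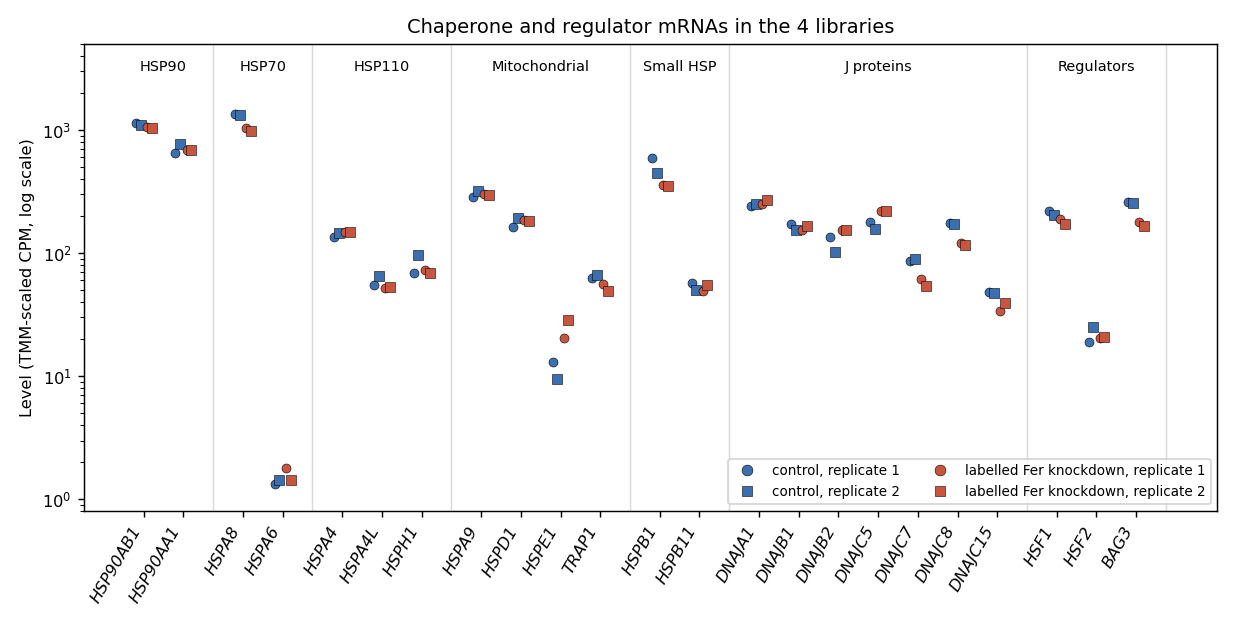
Level of a selection of the protein-coding members described by name in each of the 4 libraries, in TMM-scaled CPM on a log scale, grouped by role (circles replicate 1, squares replicate 2). HSPE1 in the knockdown-labelled libraries (20.4 and 28.4 CPM) is among the genes above both controls. HSPA8, HSPB1, DNAJC7, DNAJC8 and BAG3 are among those below both.

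HSF1 binds inverted repeats of the unit GAA, and a searched promoter window shows which members carry them near a start site. Each window held 250 bases before and 50 after a RefSeq start (build GRCh38.p14), read on both strands for 3 alternating units, GAANNTTCNNGAA or TTCNNGAANNTTC. Of the members, 71 had a window, and 7 held a match (9.86%), against 0.608% of 27305 genes with a window. They were DNAJA1, DNAJB6, HSP90AA1, HSP90AB1, HSPA6, HSPA8 and HSPD1. HSP90AB1 and HSPA8 each held 2 separate matches, and HSPD1 held 2 that overlap. The matches are printed 5′ to 3′ on the gene's strand, with the match in capitals, so that the fold changes can be read against the elements that HSF1 is known to bind. A match is a description of the letters and not a site shown to be bound, and a window without one says only that these letters are not in it.
HSP90AA1, chr14:102087112-102087140 minus strand, match from position -88: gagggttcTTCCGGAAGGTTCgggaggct
HSP90AB1, chr6:44247770-44247798 plus strand, match from position -165: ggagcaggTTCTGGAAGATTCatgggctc
HSP90AB1, chr6:44247823-44247851 plus strand, match from position -112: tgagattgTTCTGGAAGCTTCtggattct
HSPA8, chr11:123062346-123062374 minus strand, match from position -230: gcgagcttGAAAGTTCCAGAAcgctgcgg
HSPA8, chr11:123062171-123062199 minus strand, match from position -55: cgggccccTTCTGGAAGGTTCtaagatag
HSPA6, chr1:161524458-161524486 plus strand, match from position -74: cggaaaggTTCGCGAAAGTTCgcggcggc
HSPD1, chr2:197500062-197500090 minus strand, match from position -245: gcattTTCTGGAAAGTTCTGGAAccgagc
DNAJA1, chr9:33025268-33025296 plus strand, match from position 4: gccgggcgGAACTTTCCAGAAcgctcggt
DNAJB6, chr7:157336865-157336893 plus strand, match from position -131: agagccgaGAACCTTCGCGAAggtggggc

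Genes with such an element did not stand on one side of control. The log2 fold changes of the 7 ran from -0.40 (HSPA8) to 0.23 (HSPA6) with a median of 0.04, and 0 passed the threshold (background 0.646%). The 46 tested members that had a window without a match had a median of -0.05. BAG3, HSPB1 and HSPE1, which are further from control, had no match in their windows. The HSPE1 window (chr2:197500129-197500428) overlaps a window of HSPD1 (chr2:197500225-197500524). The matches printed for HSPD1 (chr2:197500062-197500090) lie just outside the HSPE1 window, so HSPE1 is not without a match nearby.

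The 2 cytosolic HSP90 chaperones, which mature kinases and steroid receptors, were close to control. HSP90AB1, the constitutive form whose 2 printed elements lie upstream of its start, was at 1143 and 1105 CPM in control and 1057 and 1034 CPM in the knockdown-labelled libraries. Both of the latter are below both controls, yet the log2 fold change was only -0.10 ± 0.11 (SE; 95% interval -0.34 to 0.13; adjusted p = 0.658), and it turned to 0.06 when libraries were scaled by their totals alone, a scaling that moved the median of all tested genes from 0.01 to 0.18. HSP90AA1, the stress-inducible form, was at 651 and 770 CPM in control and 691 and 682 CPM in the knockdown-labelled libraries. These groups overlap, and the log2 fold change was -0.05 ± 0.12 (SE; adjusted p = 0.877; 0.11 by totals alone).

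Among the HSP70 chaperones of the cytosol and nucleus, the constitutive HSPA8 (Hsc70, ENSG00000109971, chromosome 11) was the member furthest from control. It was at 1344 and 1312 CPM in control and at 1041 and 974 CPM in the knockdown-labelled libraries. The groups do not overlap, and the means were 1328 ± 22.3 and 1007 ± 47.7 CPM (SD, n = 2 each). On the log2 scale the difference was -0.40 ± 0.11 (SE; 95% interval -0.64 to -0.16); edgeR's adjusted p was 0.110. The stress-inducible HSPA6 was near the floor of detection at 1.32 and 1.43 CPM in control and 1.81 and 1.43 CPM in the knockdown-labelled libraries (log2 fold change 0.23, adjusted p = 0.797). Of its 75-base stretches, 35.0% occur also in another gene, so its reads can be shared. The other 4 tested members (HSPA2, HSPA12A, HSPA12B and HSPA14) had overlapping groups and log2 fold changes of -0.02 to 0.17.

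HSPA1A and HSPA1B, the classical stress-induced HSP70 genes, could not be read from this table. HSPA1A had 2 counts in replicate 1 of control and 0 in the other 3 libraries. HSPA1B had 1 count in replicate 1 of the knockdown-labelled libraries and 0 in the other 3, and HSPA1L had 0 in all 4. A total of 3 counts corresponds to 0.113 to 0.147 CPM in these libraries, and all 3 genes lie under that in each. HSPA1A and HSPA1B share 69.3% and 73.2% of their 75-base stretches with other genes, but HSPA1L shares 0.688%. No gene shares more stretches with HSPA1A than HSPA1B does, and the same holds the other way round.

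Their neighbours were nearly empty too. Of the 20 protein-coding genes on each side of HSPA1A on chromosome 6, not counting HSPA1B and HSPA1L, 32 of 38 (84.2%) averaged under 1 CPM, against 44.6% of the other protein-coding genes of the chromosome and 35.7% of all protein-coding genes. Listed at 0 in all 4 libraries were 20 of the 38 (52.6%, against 19.4% and 13.6%). CLIC1, a chloride channel protein, LSM2, a subunit of the U6 snRNA-binding ring, and NEU1, a lysosomal sialidase, are widely expressed, and each had 1 count in replicate 1 of control and 0 elsewhere. EHMT2, a histone methyltransferase, was at 0. VARS1, the cytosolic valyl-tRNA synthetase, had 8 and 4 counts in control and 247 and 7 in the knockdown-labelled libraries, so replicates of 1 group differed many times over. These genes, and NELFE, were chosen after their values were seen. NELFE, which lies in the same stretch and belongs to the complex that pauses RNA polymerase II, had 27 and 16 counts in control and 293 and 594 in the knockdown-labelled libraries (log2 fold change 4.10, adjusted p = 0.00128). Counts of 0 for HSPA1A, HSPA1B and HSPA1L are therefore not given as absence of the mRNA, and the cause of the low counts in the stretch was not tested.

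**Figure D3:**
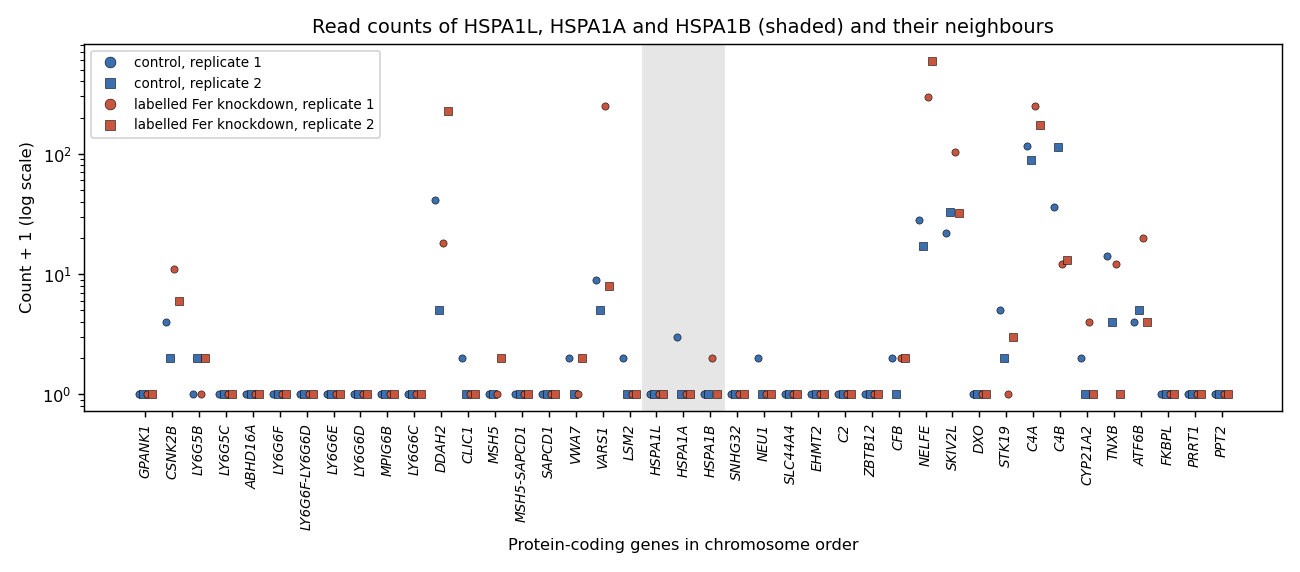
Read counts plus 1 (log scale) of HSPA1L, HSPA1A and HSPA1B (shaded) and of neighbouring protein-coding genes in chromosome order, in each of the 4 libraries. Most genes sit at the bottom line, which is a count of 0, and NELFE reaches 594 counts in replicate 2 of the knockdown-labelled libraries.

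The HSP110 proteins act as nucleotide exchange factors for HSP70 and hold unfolded proteins themselves. HSPA4 (Apg-2) was at 136 and 146 CPM in control and 148 and 149 CPM in the knockdown-labelled libraries. The latter are above replicate 2 of control by less than the controls differ from each other, and the log2 fold change was 0.08 (adjusted p = 0.791). HSPA4L, its close relative, was at 55.2 and 65.2 CPM in control and 51.9 and 52.6 CPM in the knockdown-labelled libraries (log2 fold change -0.20, adjusted p = 0.481). HSPH1 (Hsp105) was at 69.0 and 95.7 CPM in control and 72.7 and 68.4 CPM in the knockdown-labelled libraries. Replicate 2 of control stands above the other 3, and without it the log2 fold change of -0.22 (adjusted p = 0.524) became 0.0089. Without replicate 1 of control the log2 fold change was -0.45.

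In mitochondria, HSPD1 (Hsp60) forms the chamber in which imported proteins fold, and HSPE1 (Hsp10, ENSG00000115541, chromosome 2) is its lid. The 2 genes share that chromosome, and their searched promoter windows overlap. HSPE1 had 269 and 205 counts in control and 463 and 754 in the knockdown-labelled libraries, which is 13.2 and 9.45 CPM against 20.4 and 28.4 CPM. The groups do not overlap, although the 2 knockdown-labelled libraries differ from each other as well. The means were 11.3 ± 2.62 and 24.4 ± 5.66 CPM (SD, n = 2 each), a difference in log2 terms of 1.11 ± 0.21 (SE; 95% interval 0.63 to 1.59; adjusted p = 0.0549), the largest of any tested member. HSPD1 was at 163 and 194 CPM in control and 184 and 182 CPM in the knockdown-labelled libraries, between the controls (log2 fold change 0.04, adjusted p = 0.921). Per kilobase, the level of HSPD1 was 5.47 and 9.09 times that of HSPE1 in control and 3.99 and 2.83 times in the knockdown-labelled libraries.

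Some HSPE1 reads may belong elsewhere. Exons of other genes on either strand overlap 23.9% of its exonic bases. Of its 75-base stretches, 18.0% occur also in another gene, and no gene shares more of them than HSPD1. How far such reads entered the ratios of HSPD1 to HSPE1 was not tested. The read-through row HSPE1-MOB4 was at 0 in all libraries. The pseudogene HSPE1P2 had 73 and 56 counts in control and 29 and 71 in the knockdown-labelled libraries, and its adjusted p was 0.429. Its counts stayed under those of HSPE1 in every library, but its length is 306 bases against 1823 for HSPE1. Per kilobase the pseudogene was at 11.7 and 8.44 CPM in control, above HSPE1 at 7.22 and 5.19. In the knockdown-labelled libraries it was at 4.17 and 8.74 CPM per kilobase, below HSPE1 at 11.2 and 15.6. How reads were assigned between HSPE1 and HSPE1P2 was not tested.

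HSPA9 (mortalin), the HSP70 of the mitochondrial matrix, was at 284 and 320 CPM in control and 303 and 295 CPM in the knockdown-labelled libraries, inside the range of control (log2 fold change -0.02, adjusted p = 0.966, and 0.15 by totals alone). TRAP1, the mitochondrial HSP90, was at 63.2 and 66.7 CPM in control and 55.8 and 49.1 CPM in the knockdown-labelled libraries. Its log2 fold change was -0.31 (adjusted p = 0.269), and other genes cover 29.3% of its exonic bases. Among the 6 mitochondrial J proteins, DNAJA3 (Tid1), a partner of HSPA9, was level with control (log2 fold change 0.03, adjusted p = 0.938). DNAJC15, which sits at the import channel of the inner membrane, was at 48.3 and 47.0 CPM in control and 33.6 and 39.1 CPM in the knockdown-labelled libraries. Both are below control, at a log2 fold change of -0.39 (adjusted p = 0.191). DNAJC28 was low throughout, at 2.10 and 1.75 CPM in control and 2.64 and 2.52 CPM in the knockdown-labelled libraries (log2 fold change 0.42, adjusted p = 0.510). Of 9 other mitochondrial chaperone partners and proteases, 0 passed the threshold in either direction (background 0.646%), with a median log2 fold change of 0.17. CLPP, the proteolytic chamber of the ClpXP protease, was at -0.31 (adjusted p = 0.242), and HSCB, a J protein of iron-sulfur cluster assembly, was at 0.45 (adjusted p = 0.275).

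Small heat shock proteins hold unfolded clients without using ATP. HSPB1 (Hsp27, ENSG00000106211, chromosome 7), which also binds actin filaments, is the abundant one in these cells. It was at 593 and 446 CPM in control and at 358 and 353 CPM in the knockdown-labelled libraries. The controls differ from each other by more than replicate 2 of control differs from the knockdown-labelled libraries, and the groups still do not overlap. The log2 fold change was -0.55 ± 0.14 (SE; 95% interval -0.86 to -0.23; adjusted p = 0.101). It was -0.33 without replicate 1 of control and -0.76 without replicate 2. HSPB11, which belongs to the intraflagellar transport machinery despite its symbol, was at -0.06 (adjusted p = 0.879; 0.11 by totals alone). HSPB6 and HSPB8 were at most 3.08 CPM in any library with overlapping groups, and HSPB2, HSPB3, HSPB7 and HSPB9 had too few reads to test.

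J proteins of types A and B are the general partners of cytosolic HSP70. The most abundant, DNAJA1 (Hdj2), was at 240 and 249 CPM in control and 253 and 271 CPM in the knockdown-labelled libraries, a log2 fold change of 0.10 (adjusted p = 0.709). DNAJB1 (Hsp40), the form most strongly induced by heat, was at 171 and 154 CPM in control and 154 and 167 CPM in the knockdown-labelled libraries. The groups overlap almost fully (log2 fold change -0.02, adjusted p = 0.966; 0.15 by totals alone). DNAJB2, which sends clients to the proteasome, was at 135 and 101 CPM in control and 155 and 154 CPM in the knockdown-labelled libraries. Both are above control at a log2 fold change of 0.39 (adjusted p = 0.217), which was 0.17 without replicate 2 of control and 0.60 without replicate 1 (adjusted p = 6.87e-12, with the one control left assumed to vary like the other group). DNAJB5 was at 57.1 and 59.4 CPM in control and 48.3 and 49.0 CPM in the knockdown-labelled libraries (log2 fold change -0.26, adjusted p = 0.325). DNAJB6, which holds back aggregation of polyglutamine proteins and was named for its element after its values were seen, was at 0.06 (adjusted p = 0.852).

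The 7 J proteins anchored in the endoplasmic reticulum membrane had log2 fold changes of -0.29 to 0.26 with a median of 0.02. Of these, 0 had an unadjusted p under 0.05 (background 17.7%). DNAJB12, which works with HSP70 on misfolded membrane proteins, had the highest CPM of the group before division by length. It was at 89.2 and 73.3 CPM in control and 68.4 and 64.7 CPM in the knockdown-labelled libraries, lower in both at -0.29 (adjusted p = 0.318), which was -0.15 without replicate 1 of control and -0.45 without replicate 2. DNAJC16 was at 0.26 with overlapping groups (adjusted p = 0.579).

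The remaining type C J proteins have special tasks, and DNAJC8 and DNAJC7 had the smallest p among them. DNAJC8 (ENSG00000126698, chromosome 1) is found in the nucleus with splicing factors. It had 3578 and 3757 counts in control and 2732 and 3087 in the knockdown-labelled libraries, which is 175 and 173 CPM against 120 and 116 CPM. Replicates agree closely in both groups, with means of 174 ± 1.23 and 118 ± 2.88 CPM (SD, n = 2 each). On the log2 scale the difference was -0.56 ± 0.12 (SE; 95% interval -0.82 to -0.30; adjusted p = 0.0588).

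DNAJC7 (TPR2, ENSG00000168259, chromosome 17) binds HSP70 and HSP90 at once and can hand clients back from HSP90 to HSP70. It was at 86.5 and 89.9 CPM in control and 61.3 and 54.1 CPM in the knockdown-labelled libraries, again without overlap. The log2 fold change was -0.61 ± 0.13 (SE; 95% interval -0.91 to -0.32; adjusted p = 0.0634), and other genes cover 9.44% of its exonic bases. DNAJC2 (zuotin), a chaperone at the ribosome, was at -0.56 (adjusted p = 0.163; -0.80 without replicate 1 of control and -0.31 without replicate 2), and DNAJC4 was at -0.50 (adjusted p = 0.139). Exons of other genes overlap 9.57% and 13.9% of the bases of these 2 genes, which were chosen after their values were seen. In the other direction, DNAJC5 (cysteine string protein alpha), a chaperone of secretory vesicles, was at 180 and 156 CPM in control and 219 and 220 CPM in the knockdown-labelled libraries. Both are above control, at 0.39 ± 0.12 in log2 terms (SE; adjusted p = 0.151). DNAJC22 was at 4.11 and 3.32 CPM in control and 7.13 and 4.25 CPM in the knockdown-labelled libraries (log2 fold change 0.61, adjusted p = 0.306). It was 0.20 without knockdown-labelled replicate 1 and 0.94 without replicate 2. The other 8 tested genes of this group had overlapping groups. Among them DNAJC6 (auxilin), which uncoats clathrin vesicles, was at 16.4 and 27.6 CPM in control and 20.1 and 23.0 CPM in the knockdown-labelled libraries (log2 fold change -0.03, adjusted p = 0.967). Its log2 fold change was -0.36 without replicate 1 of control and 0.38 without replicate 2 of control. DNAJC6 was chosen after its values were seen.

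**Figure D4:**
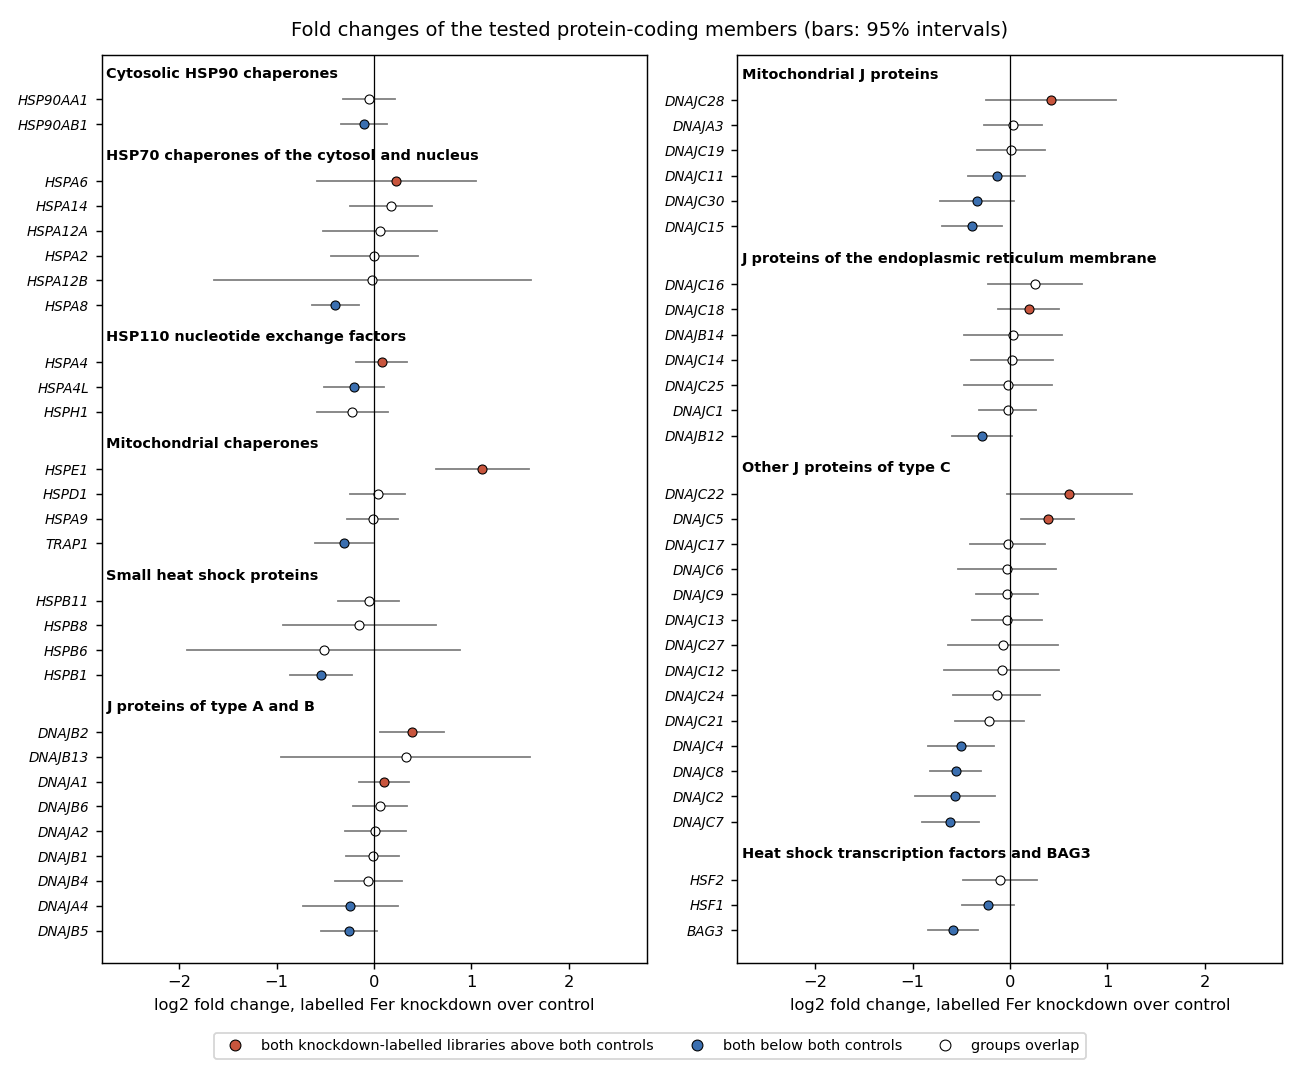
Log2 fold change with 95% interval of the 58 tested protein-coding members, knockdown-labelled libraries over control, grouped by role (red, both knockdown-labelled libraries above both controls; blue, both below; open, groups overlap). Most intervals cross zero, and HSPE1 at 1.11 lies furthest to the right.

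Among the regulators, HSF1 itself was near control. It was at 218 and 203 CPM in control and 189 and 172 CPM in the knockdown-labelled libraries, lower in both at -0.22 ± 0.12 in log2 terms (SE; 95% interval -0.49 to 0.05; adjusted p = 0.374). HSF1 is controlled largely at the protein level, so its mRNA does not report its activity. HSF2, a related factor, was at 19.1 and 25.2 CPM in control and 20.4 and 20.8 CPM in the knockdown-labelled libraries, between the controls (log2 fold change -0.10, adjusted p = 0.804; 0.06 by totals alone).

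BAG3 (ENSG00000151929, chromosome 10), the HSP70 exchange factor that works with small heat shock proteins in selective autophagy, was the regulator furthest from control. It had 5339 and 5527 counts in control and 4033 and 4414 in the knockdown-labelled libraries, which is 261 and 255 CPM against 178 and 166 CPM. Both are below both controls by far more than replicates differ, with means of 258 ± 4.42 and 172 ± 8.06 CPM (SD, n = 2 each). On the log2 scale the difference was -0.59 ± 0.12 (SE; 95% interval -0.84 to -0.33; adjusted p = 0.0549). No exon of another gene overlaps BAG3, and none of its 75-base stretches occurs elsewhere.

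HSPE1, BAG3, DNAJC8, DNAJC7, HSPB1 and HSPA8 missed the threshold as tested and passed it under some alternatives of tool, scaling, filter or libraries. HSPE1 passed under 11 of 14 alternatives, BAG3 under 9, DNAJC8 under 7, DNAJC7 and HSPB1 under 6 each and HSPA8 under 3. Of the members named above, DNAJC4 passed under 5, and DNAJC2 and DNAJC5 under 3 each. The adjusted p ran from 2.03e-18 to 0.33 for HSPE1 and from 3.5e-17 to 0.867 for BAG3. For DNAJC8 it ran from 2.97e-12 to 0.885, for DNAJC7 from 3.6e-10 to 0.905, for HSPB1 from 7.72e-31 to 0.842 and for HSPA8 from 9.5e-13 to 0.982. The lowest values came without 1 of the controls, when the spread is taken from the closer pair labelled Fer knockdown, and the highest without 1 of that pair, when it is taken from the controls alone. The log2 fold changes moved less, from 0.85 to 1.37 for HSPE1 and from -0.63 to -0.42 for BAG3, and none of the 6 changed sign under any of them.

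The number of members called is given beside the share of all tested genes called. It was 1 with DESeq2 size factors in edgeR (background 0.861%), 2 with upper-quartile factors (1.25%) and 2 with library totals alone (2.89%). With no low-count filter it was 8 of 73 (4.14%), with at least 5 CPM in 2 libraries 1 of 48 (1.06%), and with a length trend removed 6 of 60 (4.45%). With the replicate number as a block it was 7 (6.46%). Leaving out replicate 1 or 2 of control gave 20 of 60 (29.5%) and 16 of 61 (20.6%), and leaving out replicate 1 or 2 of the knockdown-labelled libraries gave 1 (0.713%) and 0 (0.352%) of 61. Leaving out the mitochondrial chromosome gave 0 of 59 (0.498%). HSPE1 was called higher wherever any member was, with the exception of the filter of 5 CPM, under which BAG3 was the 1 member called.

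**Figure D5:**
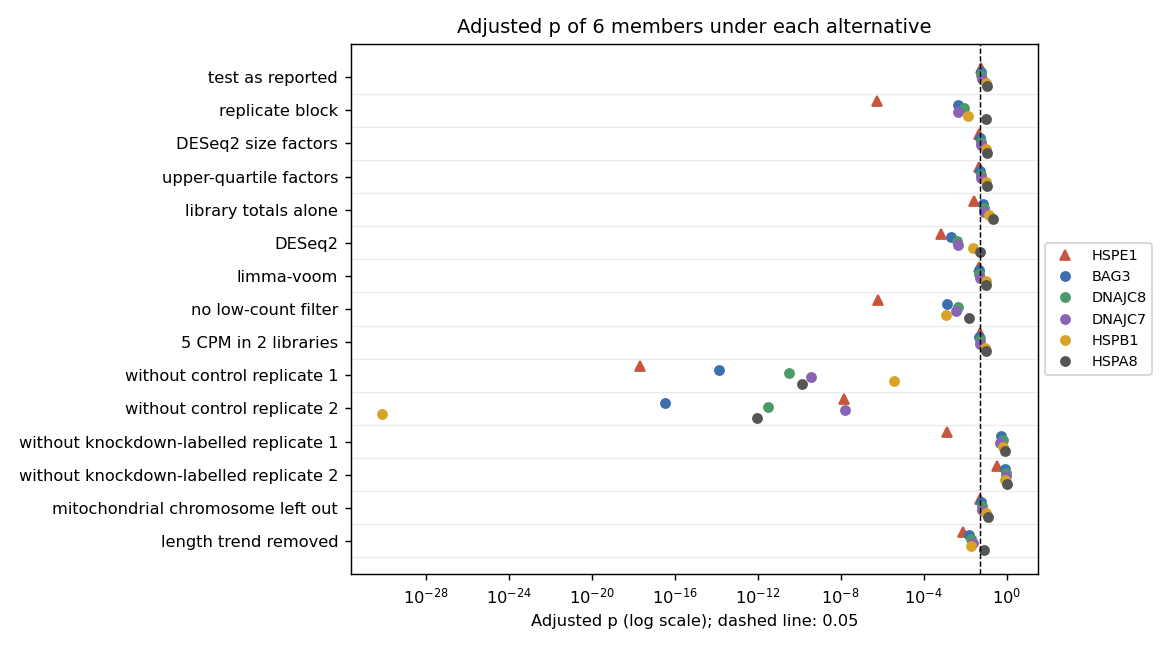
Adjusted p (log scale, dashed line at 0.05) of HSPE1, BAG3, DNAJC8, DNAJC7, HSPB1 and HSPA8 in the test as reported and under 14 alternatives. All 6 lie far to the left of the line when a control library is left out, and right of it without replicate 2 of the knockdown-labelled libraries.

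The heat-inducible members lay on both sides of control. Of 15 listed, 13 were tested and 0 passed the threshold (background 0.646%), and 4 had an unadjusted p under 0.05 (background 17.7%). Both knockdown-labelled libraries were above both controls for 4 (30.8%, background 25.8%) and below both for 5 (38.5%, background 23.4%). The log2 fold changes ran from -0.59 (BAG3) to 1.11 (HSPE1), with a median of -0.05. The HSF1 targets outside the members, which read out the same factor, gave 0 of 11 past the threshold (background 0.646%) and a median of -0.11. Of the 11, 4 had both knockdown-labelled libraries below both controls (36.4%, background 23.4%) and 1 had both above (9.09%, background 25.8%). The 1 above was IER5, an HSF1 cofactor induced early after stimulation. It was at 169 and 143 CPM in control and 193 and 213 CPM in the knockdown-labelled libraries (log2 fold change 0.38, adjusted p = 0.176).

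The listed partners of HSP90 and HSP70 outside the rule were compared in the same way. Of 17 HSP90 co-chaperones, 0 passed the threshold (background 0.646%) and the median log2 fold change was -0.05. With so low a background, 0 calls in a list of this length says little about its genes. CDC37, which brings kinases to HSP90, was at 418 and 351 CPM in control and 296 and 301 CPM in the knockdown-labelled libraries (log2 fold change -0.37, adjusted p = 0.172). STIP1 (HOP), which links HSP70 to HSP90, was at -0.27 (adjusted p = 0.292). Of 8 HSP70 co-chaperones, 0 passed (background 0.646%) and the median was 0.02. Among the 8 is BAG6, whose gene is on chromosome 6 like HSPA1A. It had only 52 and 25 counts in control and 46 and 32 in the knockdown-labelled libraries, and the cause of its low counts was not tested. ST13 (HIP) was at -0.23 (adjusted p = 0.352) and the exchange factor HSPBP1 at 0.27 (adjusted p = 0.495).

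The chaperonin CCT, which folds actin and tubulin, and prefoldin, which feeds it, were for the larger part a little above control. Of 14 genes 13 were tested and 0 passed the threshold (background 0.646%). Both knockdown-labelled libraries were above both controls for 9 of the 13 (69.2%, background 25.8%) and below both for 2 (15.4%, background 23.4%), with a median log2 fold change of 0.17. The 2 below were the prefoldin subunits PFDN4 at -0.43 (adjusted p = 0.188) and PFDN1 at -0.36 (adjusted p = 0.244). PFDN6, another subunit, whose gene is on chromosome 6 like HSPA1A, was at 0 in every library. As for HSPA1A, this is not given as absence of the mRNA, and its cause was not tested.

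Markers of cell state were compared between the same libraries. Of 8 tested mesenchymal markers 1 passed the threshold (background 0.646%), THY1 at -0.77 (adjusted p = 0.0302), and 5 had an unadjusted p under 0.05 (background 17.7%). Both knockdown-labelled libraries were below both controls for 4 (50%, background 23.4%) and above both for 1 (12.5%, background 25.8%), COL3A1 at 1.39 (adjusted p = 0.248). The summed level of the list was 4217 and 4925 CPM in control against 3422 and 3273 CPM in the knockdown-labelled libraries. Of 8 tested epithelial markers 0 passed, with KRT17 at 0.77 (adjusted p = 0.0552) and KRT7 at -0.40 (adjusted p = 0.169). Both knockdown-labelled libraries were above both controls for 3 of the 8 (37.5%, background 25.8%) and below both for 1 (12.5%, background 23.4%). An unadjusted p under 0.05 was found for 3 (background 17.7%). CDH1 was at 0.45 (adjusted p = 0.239) and EPCAM at 0.46 (adjusted p = 0.426); these 2 and COL3A1 were chosen after their values were seen. The summed level, most of it KRT8 and KRT18, was 3469 and 2778 CPM in control and 2960 and 2931 CPM in the knockdown-labelled libraries, inside the range of control. Of 8 blood and endothelial markers 7 were in the table and 2 were tested, CD14 at -0.27 (adjusted p = 0.546) and VWF at -0.53 (adjusted p = 0.754), with a summed level of 16.5 to 26.7 CPM in control and 17.1 to 17.8 CPM in the knockdown-labelled libraries. The part of these shifts in the lower levels of HSPB1, BAG3 and HSPA8 was not tested.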

How the data were processed

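Polyadenylated RNA was sequenced in 2 control libraries and 2 libraries labelled Fer knockdown, prepared with oligo(dT) beads and a TruSeq kit (labels' protocols). Raw read counts were deposited by the authors, 1 value per gene and library beside a symbol and a length, per the file headers. HISAT2, featureCounts and DESeq2 and the builds hg19 and mm10 are named without roles in the submitters' processing notes. Strand setting and annotation: not given in the sources used here. Columns were matched to libraries by name; knockdown replicate 1 has a shortened column name and was taken as the only knockdown column numbered 1.

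Of 39635 entries 1 had no values. The symbol patterns found 148 rows, from which 61 pseudogene rows (gene types of GENCODE release 29) and 6 named chaperones were left out. GENCODE also gave chromosomes, exon overlap on either strand and shared 75-base stretches of transcripts; it belongs to another build than hg19, so no coordinates were taken from it. Promoter windows came from RefSeq.

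The test was edgeR 4.0.16 (R 4.3.3) on the counts: filterByExpr (minimum count 10), TMM factors (0.940, 0.949, 1.06 and 1.06), glmQLFit and glmQLFTest, two-sided, no block, Benjamini-Hochberg adjustment over 15336 genes, with 2 residual degrees of freedom. The steps were tested on simulated data. Alternatives were the replicate block, 3 other scalings, DESeq2 1.42.0, limma-voom (limma 3.58.1), 2 other filters, mitochondrial genes left out, a length trend removed (lowess, span 0.3) and each library left out.

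Members and lists were chosen with earlier results of these data known. Genes were named by rule: FER, a list of chaperones and regulators, any member past the threshold, and in each role the member with the smallest p, the highest level and the largest and smallest log2 fold change; in each other list up to 2 past the threshold, or the 2 with the smallest p. One gene that this rule names is not reported here.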

Additional observations from a re-analysis of the deposited data

How the results depend on the processing

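Chaperone calls varied with the tool, the scaling, the filter and the libraries used. Against 0 members higher and 0 lower, 1 was higher and 4 lower with DESeq2, 1 and 2 with limma-voom, 1 and 0 with DESeq2 size factors, 1 and 1 with upper-quartile factors, and 2 and 0 with library totals alone. With no low-count filter 1 was higher and 7 lower of 73 tested, with a filter of 5 CPM in 2 libraries 0 and 1 of 48, and with the length trend removed 1 and 5. Without 1 library, 0 to 5 were higher and 0 to 15 lower. Leaving out replicate 1 of control called 20 members (all genes 29.5%) and leaving out replicate 2 of control 16 (20.6%), while leaving out knockdown-labelled replicate 1 or 2 called 1 and 0. A group with 1 library left is assumed to vary like the other. Leaving out mitochondrial genes called 0 members. The shares of all genes called under these alternatives were taken over both directions together. The split of the members into higher and lower therefore has no background beside it.

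The labels do not say whether the replicate numbers pair the samples. The replicates' deviations from their group means correlated between the groups at 0.0306 over genes, which cannot settle the question with 2 libraries per group. With the replicate number as a block 1 member was higher (HSPE1) and 6 lower (BAG3, DNAJC7, DNAJC8, HSPB1, DNAJC2 and DNAJC4), and over all genes 990 passed against 99.

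The members' median log2 fold change of -0.03 became 0.13 with library totals alone (all genes 0.18), -0.0556 with the filter of 5 CPM, and -0.116 to -0.0544 without 1 library. FER ran from -0.16 to 0.19 without 1 library. With library totals alone DNAJB1 was at 0.15, HSF2 at 0.0601, HSP90AA1 at 0.11, HSP90AB1 at 0.06, HSPA9 at 0.15, HSPB11 at 0.11 and DNAJC6 at 0.13. DNAJC6 was also at 0.009 with the replicate block and 0.0157 with limma-voom. With the length trend removed HSPA9 was at 0.0114. Without 1 library, signs also changed for CD14 (-0.58 to 0.0832), DNAJA3 (-0.11 to 0.15), DNAJB1 (-0.11 to 0.057), DNAJB6 (-0.0198 to 0.12), DNAJC6 (-0.36 to 0.38), HSF2 (-0.29 to 0.088), HSP90AA1 (-0.17 to 0.0528), HSPA9 (-0.11 to 0.0513), HSPB11 (-0.17 to 0.0367), HSPBP1 (-0.022 to 0.58), HSPD1 (-0.0921 to 0.15), HSPH1 (-0.45 to 0.0089) and VWF (-1.26 to 0.88). The cause of these changes was not tested. Without 1 library, HSPA4L ran from -0.32 to -0.10 and DNAJC28 from 0.27 to 0.55. THY1 lost its call without either knockdown-labelled library (adjusted p = 0.142 and 0.516).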

Other observations

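Of the 61 pseudogene rows that the symbol patterns found, 33 were at 0 in all 4 libraries and 7 were tested. HSP90AB3P had 157 and 244 counts in control and 172 and 414 in the knockdown-labelled libraries, and HSP90AA2P had 129 and 198 against 143 and 294. In both groups replicate 2 was higher than replicate 1 for these copies of the HSP90 genes, and their adjusted p-values were 0.672 and 0.802 in edgeR's quasi-likelihood test. DNAJB6P1 had 115 and 139 counts in control and 181 and 118 in the knockdown-labelled libraries (adjusted p = 0.966). These rows were chosen after their values were seen.

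Of the 12 antisense, divergent and read-through rows, 5 were at 0 in every library and 2 were tested. DNAJC3-DT had 18 and 36 counts in control and 7 and 33 in the knockdown-labelled libraries (adjusted p = 0.607), and DNAJC9-AS1 had 3 and 13 against 11 and 14 (adjusted p = 0.802). Their groups overlap.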
